A study of Ovis aries with 6 samples.

Results

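Nuclear receptors are transcription factors switched on or off by small fat-soluble molecules, and the ones described here answer to fatty acids, oxysterols, bile acids, retinoids, vitamin D and sex steroids or have no agreed ligand. Many bind DNA as pairs with a retinoid X receptor (RXR) and pass their signal on through coactivators such as the NCOA proteins or corepressors such as NCOR1. In fat they are known for PPARG, without which adipocytes do not form. The genes were taken by name from the deposited table: of 37 names, 32 for receptors and 5 for coregulators, 36 were found (31 receptors and the 5 coregulators), out of 24390 genes in the table. RORB is not analysed here. PPARG stands in the table as PPARG2. Of the 36, 30 passed the filter on low counts and were tested, among 13624 genes tested in all. The 6 that did not pass were NR1H4, NR1I2, HNF4G, ESR2, PGR and NR0B2.

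RNA was sequenced from the fat around the kidney (perirenal adipose tissue) of 3 lambs and 3 fetuses, to follow the change of this depot between the fetal and the weaned animal. All were wild-type pure-bred Merino sheep that received no treatment per the labels, the fetuses from 3 ewes killed in pregnancy and the lambs born at term and reared with their mothers; each library is 1 animal. The fetuses were at 132 days of gestation, with term at 150 days, and the lambs are given as 80 days after birth, as 89 days old and as 12 weeks old. The lamb titles end in VEH, letters that no source used here explains. The tissue holds several cell types, so fewer cells of a type and less RNA per cell cannot be told apart in any result.

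The lamb libraries held 17232160, 15907128 and 17263780 counts and the fetal libraries 19150428, 18813744 and 17535892. Levels are in CPM, counts scaled to the library size after TMM adjustment, and differences are log2, lamb minus fetus, ± SE, with n = 3 per stage. An adjusted p comes from edgeR's quasi-likelihood test with Benjamini-Hochberg adjustment over all genes tested, and a gene was called below 0.05. Genes of the mitochondrial genome took 7.37 to 8.29% of the counts in lambs and 27.5 to 40.7% in fetuses, so scaling matters: with library totals alone the median log2 difference of all genes moved up by 0.47, and directions below are relative to TMM scaling. Of all genes called, 49.3% were higher in lambs with TMM and 79.4% with library totals. All 10 adipocyte markers other than PPARG were detected, with summed levels of 29676 to 41071 CPM in lambs and 14270.4 to 17893 CPM in fetuses. Brown adipocyte markers had summed levels of 531 to 676 CPM in lambs and 1685 to 2856 CPM in fetuses, with 0 of 8 tested higher in lambs and 5 lower.

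Among the 30 tested receptor and coregulator genes, 4 were higher in lambs (PPARG2, NR2C1, NR5A1 and NRIP1), 6 were lower (RXRG, RARG, NR1I3, NR2F6, NR5A2 and NCOA1) and 20 were not called. The 4 higher make 13.3% of the tested members, where 22.0% of all genes tested were called higher, and the 6 lower make 20.0%, where 22.7% of all genes were called lower. In either direction 33.3% of the members were called, against 44.7% of all genes. Their median log2 difference was -0.027, beside -0.011 for all genes tested. The stages did not overlap for 18 of the 30, or 60.0%, against 57.7% of all genes tested, and 7 were called with an absolute log2 difference above 1, or 23.3%, against 22.9% of all genes. As a set, then, the shares lie near or below the background, and the results concern which members moved. With library totals, 11 members were called higher and 4 lower, while the direction of each of the 10 members called with TMM was the same. The 7 added by library totals were PPARA, RORA, NR1H2, NR2F2, ESR1, NCOA2 and NCOA3, and RXRG and NR1I3 lost their calls. On leaving out 1 library at a time, between 3 and 5 members were called higher and between 4 and 7 lower.

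**Figure D1:**
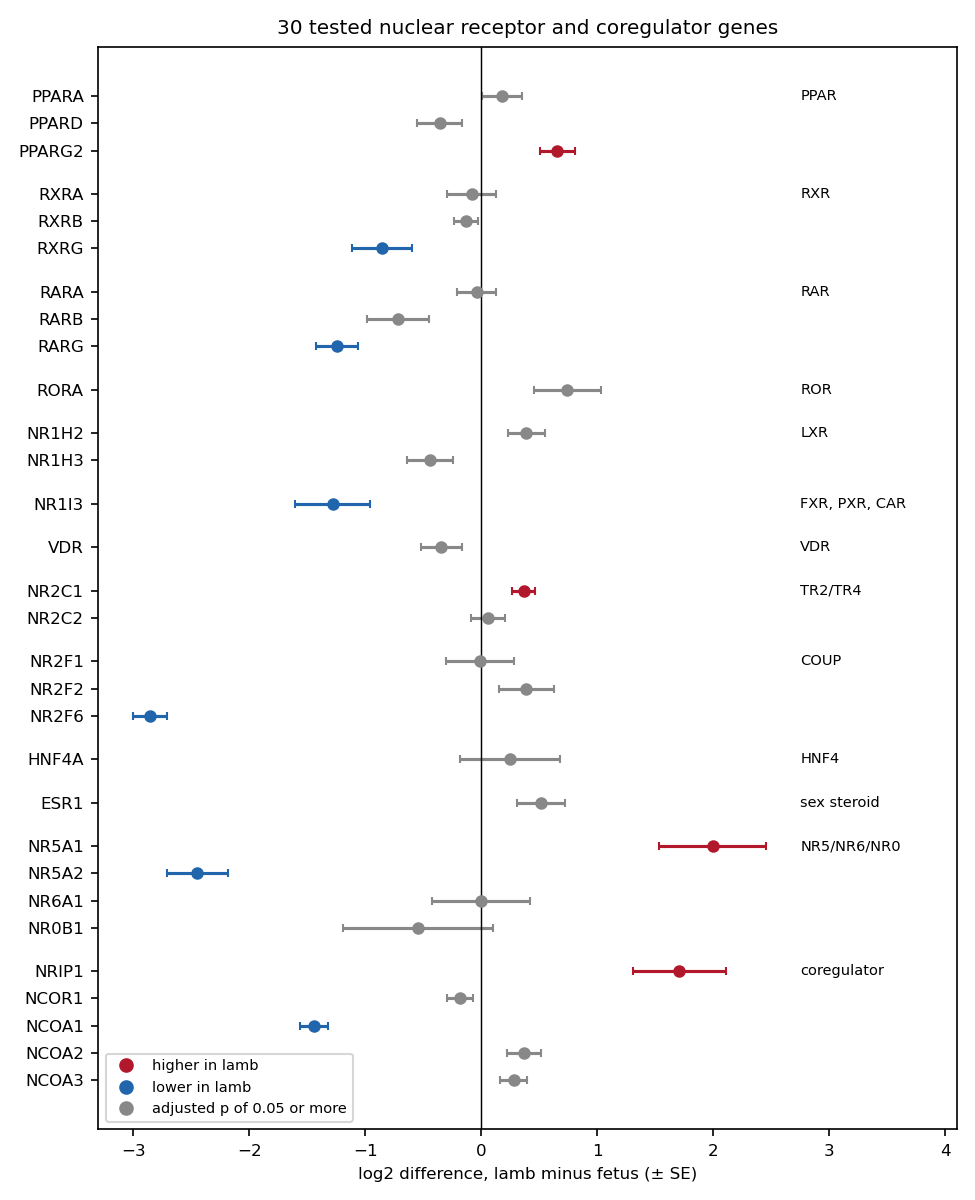
Log2 difference (lamb minus fetus) ± SE of the 30 tested genes, grouped by receptor class, from 3 lamb and 3 fetal libraries. NR2F6 at -2.86 and NR5A2 at -2.45 lie lowest, and NR5A1 at 2.00 and NRIP1 at 1.71 highest; grey points were not called.

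PPARG2, the receptor that drives adipocyte formation and lipid storage (ENSOARG00000016452, chromosome 19, 56552358 to 56652679 on Oar v3.1), had 598, 468 and 546 CPM in the lamb libraries, against 309, 369 and 345 CPM in the fetal libraries. Every lamb value was above every fetal value (log2 difference 0.66 ± 0.15, adjusted p = 0.00932), and on leaving out 1 library the difference was 0.58 to 0.75. PPARA, which drives genes of fatty acid oxidation, had 20.7, 15.5 and 24.1 CPM in the lamb libraries, against 18.1, 16.8 and 18.4 CPM in the fetal libraries. The fetal values lay within the range of the lamb values, and the gene was not called (log2 difference 0.18 ± 0.17, adjusted p = 0.433). PPARD, a widely expressed receptor for fatty acids, averaged 22.5 ± 1.74 CPM in lambs and 28.9 ± 7.38 CPM in fetuses and was not called either (log2 difference -0.36 ± 0.19, adjusted p = 0.164), with overlapping stages. Without fetal library 1 PPARD was called, at -0.54 with adjusted p = 0.0392. Within the PPAR trio, PPARG2 was thus the member that was called with all 6 libraries.

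Genes listed as targets of the PPARs moved both ways. Of 36 listed, 28 were tested, of which 12 were higher, 9 lower and 7 not called, with a median log2 difference of 0.059, beside -0.011 for all genes. Over all genes tested, 22.0% were called higher and 22.7% lower, and the counts of this and the later lists were not tested against those shares. The largest increases were those of PDK4, a kinase that shuts pyruvate dehydrogenase, and FABP5, a fatty acid carrier. PDK4 averaged 4096 ± 556 CPM in lambs and 109 ± 53.4 CPM in fetuses (log2 difference 5.23 ± 0.41, adjusted p = 0.000116), and FABP5 averaged 3011 ± 412 CPM in lambs and 329 ± 34.9 CPM in fetuses (log2 difference 3.19 ± 0.19, adjusted p = 4.69e-05). Among the decreases was that of the heart-type fatty acid binding protein gene FABP3, listed as H-FABP. H-FABP averaged 1.21 ± 0.416 CPM in lambs and 57.4 ± 21.5 CPM in fetuses (log2 difference -5.56 ± 0.38, adjusted p = 7.39e-05). The list shares FABP4, PLIN1, ADIPOQ, CIDEC, LPL and AQP7 with the adipocyte markers, and UCP1 and CIDEA with the brown adipocyte markers. The part of cell types in the PPAR target counts was not tested.

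RXRG, the retinoid X receptor isotype best known from muscle and brain (ENSOARG00000011401, chromosome 1, 115469537 to 115521351), had 106, 73.3 and 149 CPM in the lamb libraries, against 173, 237 and 183 CPM in the fetal libraries. All lamb values lay below all fetal values (log2 difference -0.85 ± 0.26, adjusted p = 0.0302), with lamb library 2 lowest and fetal library 2 highest. Lamb library 2 also had the lowest adipocyte marker sum of the lambs, 29676 CPM against 41071 and 38436 CPM in lamb libraries 1 and 3. The part of adipocytes in the RXRG level was not tested. The RXRG call did not survive the loss of single libraries: adjusted p was 0.0849 without lamb library 1, 0.0597 without lamb library 2, 0.0929 without fetal library 2 and 0.0516 without fetal library 3, and it was 0.21 with library totals, while the difference stayed negative throughout. RXRA, the isotype found in most tissues, had 4.59, 3.68 and 4.95 CPM in the lamb libraries, against 4.42, 4.27 and 5.31 CPM in the fetal libraries. Its stages overlapped (log2 difference -0.083 ± 0.21, adjusted p = 0.774). RXRB, likewise widely expressed, averaged 51.2 ± 1.99 CPM in lambs and 56.0 ± 3.62 CPM in fetuses (log2 difference -0.13 ± 0.10, adjusted p = 0.346). RXRB shares its locus with SLC39A7 (mean 946 counts), and strand use in counting is not given, so reads of the pair may be mixed.

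Per length, RXRG was the most abundant RXR and PPARG2 the most abundant PPAR in both stages. In the authors' stage means RXRG stood at 99.2 RPKM in lambs and 128 RPKM in fetuses, RXRB at 18.5 RPKM in lambs and 14.5 RPKM in fetuses and RXRA at 3.00 RPKM in lambs and 2.33 RPKM in fetuses. PPARG2 stood at 408 RPKM in lambs and 201 RPKM in fetuses, PPARD at 29.8 RPKM in lambs and 23.6 RPKM in fetuses and PPARA at 18.1 RPKM in lambs and 13.0 RPKM in fetuses. RPKM divides reads by gene length and library size, has no TMM factor and comes here as a mean without a spread, so it serves to order genes within a stage and not to compare stages. The order was set for 28 members. The other 8 were RORA, NR1H4, NR1I2, NR1I3, HNF4G, ESR2, NR6A1 and NR0B2. For these the counts imply a length under 500 bases in at least 1 stage, or there are no counts to set it from. The reads behind RPKM and counts may thus differ. They may differ among the 28 too: the implied length was 939 bases in lambs and 629 in fetuses for ESR1, and 1330 and 760 for NR5A1. In lambs the order began with PPARG2, RXRG, NR1H3 (45.1 RPKM), PPARD and ESR1 (29.1 RPKM). In fetuses it began with PPARG2, RXRG, NR2F6 (65.3 RPKM), NR1H3 (43.1 RPKM) and NCOA1 (25.5 RPKM). NR2F6 stood at rank 14 in lambs and 3 in fetuses, NCOA1 at 15 and 5, and NRIP1 at 13 and 23.

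**Figure D2:**
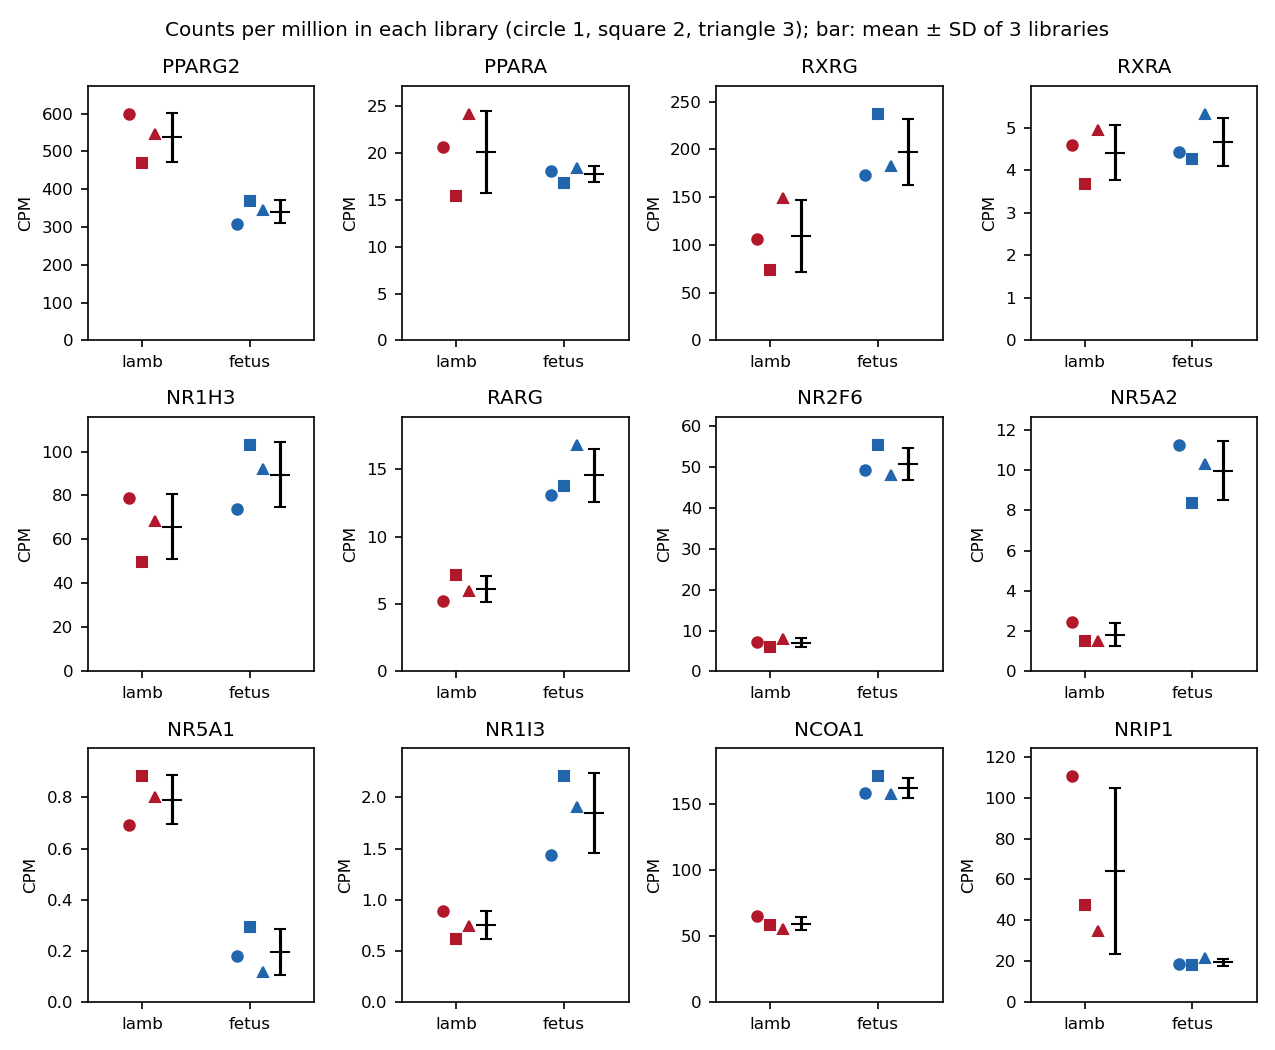
CPM of 12 members in each of the 3 lamb and 3 fetal libraries, with mean ± SD; each panel has its own linear axis from 0. RXRA, PPARA and NR1H3 overlap between the stages, the other 9 do not, and NRIP1 has 1 lamb library far above the other lamb libraries.

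The retinoic acid receptors bind all-trans retinoic acid. RARG (ENSOARG00000016626, chromosome 3, 133126743 to 133131069) had 5.24, 7.16 and 6.00 CPM in the lamb libraries, against 13.1, 13.8 and 16.8 CPM in the fetal libraries, with no overlap, and was called lower (log2 difference -1.25 ± 0.18, adjusted p = 0.00129). RARB, itself a classical target of retinoic acid, averaged 2.77 ± 0.731 CPM in lambs and 4.56 ± 0.528 CPM in fetuses; its stages did not overlap either, but it was not called (log2 difference -0.72 ± 0.27, adjusted p = 0.0595). RARA averaged 29.1 ± 5.36 CPM in lambs and 29.9 ± 3.88 CPM in fetuses, with overlapping stages (log2 difference -0.04 ± 0.17, adjusted p = 0.859). RARB overlaps TOP2B (mean 7641 counts) and RARA overlaps TOP2A (mean 461 counts) in the annotation used, so reads of these pairs may also be mixed. Markers of urothelium were lower in lambs as well, 9 of 9 tested. Their summed levels over the 10 listed were 0.550 to 0.741 CPM in lambs and 54.6 to 189.5 CPM in fetuses. Among the fetal libraries the order was the reverse of that of RARG, at 189.5, 75.0 and 54.6 CPM in libraries 1, 2 and 3. The part of urothelial cells in the RARG result was not tested.

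Of 22 genes listed as retinoic acid targets, 15 were tested, and 4 were higher, 2 lower and 9 not called (median 0.40). Named by the size of the change, CYP26B1, which breaks down retinoic acid, averaged 6.65 ± 2.56 CPM in lambs and 0.997 ± 0.357 CPM in fetuses (log2 difference 2.71 ± 0.41, adjusted p = 0.00162). The tissue transglutaminase gene TGM2 averaged 58.0 ± 13.9 CPM in lambs and 478 ± 32.8 CPM in fetuses (log2 difference -3.04 ± 0.21, adjusted p = 7.39e-05). DHRS3 and RARRES2 were the other two that rose. PDK4, given above, is on this list too. Of 43 genes that make, carry or degrade ligands of these receptors, 33 were tested, and 11 were higher, 2 lower and 20 not called (median 0.69). RBP4, the carrier of retinol in blood, averaged 1045 ± 202 CPM in lambs and 26.7 ± 5.61 CPM in fetuses (log2 difference 5.29 ± 0.25, adjusted p = 3.09e-05), and FABP5, given above, was the next largest increase. HSD17B1, which makes estradiol, was lower (log2 difference -1.40 ± 0.36, adjusted p = 0.0154) at a low level, 0.589 ± 0.0740 CPM in lambs and 1.56 ± 0.471 CPM in fetuses. ALDH1A3, which makes retinoic acid, was lower (log2 difference -0.65 ± 0.16, adjusted p = 0.0133), a call lost with library totals (adjusted p = 0.439).

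The liver X receptors sense oxysterols. NR1H3 (LXR alpha, ENSOARG00000005858, chromosome 15, 75361774 to 75367849), known from adipocytes and macrophages, had 79.1, 49.8 and 68.3 CPM in the lamb libraries, against 73.7, 103 and 91.8 CPM in the fetal libraries. The stages overlapped and the gene was not called (log2 difference -0.44 ± 0.20, adjusted p = 0.105). NR1H2 (LXR beta) averaged 15.8 ± 2.45 CPM in lambs and 12.1 ± 1.12 CPM in fetuses, without overlap, and was not called (log2 difference 0.39 ± 0.16, adjusted p = 0.0765). An unnamed gene with a mean of 240.5 counts overlaps NR1H2. Of 18 listed LXR targets, 14 were tested, and 4 were higher, 3 lower and 7 not called (median -0.014). The cholesterol exporter gene ABCG1 averaged 199 ± 43.2 CPM in lambs and 22.7 ± 8.09 CPM in fetuses (log2 difference 3.13 ± 0.28, adjusted p = 0.000182) and the phospholipid transfer protein gene PLTP 39.2 ± 13.0 CPM in lambs and 11.4 ± 0.881 CPM in fetuses (log2 difference 1.78 ± 0.26, adjusted p = 0.00129). The transcription factors of lipid synthesis went the other way: SREBF1 averaged 51.9 ± 17.0 CPM in lambs and 206 ± 36.6 CPM in fetuses (log2 difference -1.99 ± 0.27, adjusted p = 0.000924) and MLXIPL 51.7 ± 20.8 CPM in lambs and 120.4 ± 24.4 CPM in fetuses (log2 difference -1.22 ± 0.31, adjusted p = 0.0143). APOE and LPL were the other two targets that rose, and LPCAT3 the other that fell. The MLXIPL call was lost with library totals (adjusted p = 0.056). Macrophage markers were higher in lambs too: 7 of 10 tested were higher and 0 lower, with summed levels of 1299 to 1613 CPM in lambs and 182 to 407 CPM in fetuses. Their part in the LXR target result was not tested.

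VDR, the vitamin D receptor, averaged 9.05 ± 1.63 CPM in lambs and 11.5 ± 0.881 CPM in fetuses, without overlap and not called (log2 difference -0.35 ± 0.18, adjusted p = 0.148). Of 15 listed VDR targets only 4 passed the filter on low counts, and all 4 were higher in lambs: CD14 (log2 difference 2.46 ± 0.19, adjusted p = 0.000108), THBD (log2 difference 1.89 ± 0.28, adjusted p = 0.00144), SERPINB1 (log2 difference 0.85 ± 0.27, adjusted p = 0.0336) and CYP27B1 (log2 difference 2.11 ± 0.41, adjusted p = 0.00510). The list gives no expected direction, so the shared rise is not read as a response to VDR. CD14 is also one of the macrophage markers counted above, and CYP27B1 is also on the list of genes that make, carry or degrade ligands. CYP24A1, the classical vitamin D target, was at 0.185 ± 0.0761 CPM in lambs and 0.242 ± 0.124 CPM in fetuses and was not tested.

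The receptors for bile acids and foreign compounds had few counts. NR1I3 (CAR, ENSOARG00000009965, chromosome 1, 110769426 to 110774370), a sensor of drugs in liver, had 0.889, 0.623 and 0.750 CPM in the lamb libraries, against 1.43, 2.21 and 1.91 CPM in the fetal libraries, all of them low. The lamb values lay below the fetal values (log2 difference -1.28 ± 0.33, adjusted p = 0.0151). In the authors' stage means NR1I3 stood at 4.91 RPKM in lambs and 8.37 RPKM in fetuses. Its counts imply a length of only 181 bases in lambs and 186 in fetuses, so its level beside other members is not settled. The NR1I3 call was lost without lamb library 2 (adjusted p = 0.0506), fetal library 2 (0.0632) or fetal library 3 (0.0539) and with library totals (0.102). NR1H4 (FXR, the bile acid receptor) had 0, 2 and 1 counts in the lamb libraries and 5, 1 and 3 counts in the fetal libraries, a scaled ratio of 3.79 in favour of fetuses with a 95% interval of 0.946 to 21.8, which covers counting error only and includes 1. NR1I2 (PXR) had 1 count in all and NR0B2 (SHP, a receptor that lacks a DNA-binding domain and is induced by FXR in liver) had 2, all in fetal library 1. Of 20 listed targets of these receptors, 5 were tested, and 0 were higher, 2 lower and 3 not called. The lower genes were CYP3A24 and UGT1A1 (log2 difference -1.66 ± 0.55, adjusted p = 0.0406), which attaches glucuronic acid to bilirubin. CYP3A24, a drug-oxidizing cytochrome, had 17, 5 and 10 counts in the lamb libraries and 35, 462 and 11 counts in the fetal libraries (log2 difference -4.48 ± 1.43, adjusted p = 0.0363). Fetal library 2 held most of them, and without it CYP3A24 was at -1.35 with adjusted p = 0.169; the call was also lost without lamb library 1, 2 or 3 (adjusted p = 0.0876, 0.108 and 0.0958).

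NR2F6, an orphan receptor of the COUP group (ENSOARG00000017630, chromosome 5, 5594968 to 5605211), had the largest difference of the members, with 7.11, 5.92 and 8.0 CPM in the lamb libraries, against 49.2, 55.3 and 48.0 CPM in the fetal libraries. The groups lay far apart (log2 difference -2.86 ± 0.15, adjusted p = 3.63e-05), a mean level 7.26 times as high in fetuses, and on leaving out 1 library the difference was -2.96 to -2.75. By size of decrease NR2F6 stood at rank 264 of the 13624 genes tested. Its relatives were not called. NR2F1 averaged 10.2 ± 4.09 CPM in lambs and 10.3 ± 2.08 CPM in fetuses (log2 difference -0.014 ± 0.29, adjusted p = 0.973) and NR2F2, which is known for venous endothelium and for holding back adipocyte formation, 45.5 ± 16 CPM in lambs and 34.7 ± 3.85 CPM in fetuses (log2 difference 0.39 ± 0.24, adjusted p = 0.214), both with overlapping stages. Lamb library 2 had the highest level of both, at 14.8 CPM for NR2F1 and 63.7 CPM for NR2F2. Endothelial markers had summed levels of 1776 to 1864 CPM in lambs and 1662 to 2065 CPM in fetuses, with 2 of 9 tested higher and 2 lower. Lamb library 2 stood out in other marker sums. Pericyte and smooth muscle markers summed to 1327 CPM there, against 504 and 603 CPM in lamb libraries 1 and 3. For lymphatic endothelium the sums were 199.7 against 90.3 and 107.0 CPM, and for skeletal muscle 342 against 34.7 and 39.0 CPM. Its adipocyte sum was the lowest of the lambs, as were its levels of PPARG2, RXRG and NR1H3. The part of these cells in the NR2F1, NR2F2, PPARG2, RXRG and NR1H3 levels was not tested. The urothelial markers given beside RARG were lower in lambs, as NR2F6 was. Among the fetuses their sum was highest in library 1, while NR2F6 was highest in library 2. The part of urothelial cells in the NR2F6 result was not tested. Of the testicular orphan receptors, which can repress genes at other receptors' binding sites, NR2C1 had 30.9, 29.2 and 28.6 CPM in the lamb libraries, against 22.7, 22.7 and 23.6 CPM in the fetal libraries, with no overlap (log2 difference 0.36 ± 0.10, adjusted p = 0.0216). NR2C1 was no longer called without fetal library 1, 2 or 3 (adjusted p = 0.0864, 0.0676 and 0.0654). NR2C2 averaged 27.5 ± 3.86 CPM in lambs and 26.3 ± 2.80 CPM in fetuses (log2 difference 0.06 ± 0.14, adjusted p = 0.761).

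HNF4A, a receptor best known from liver, kidney tubule and gut (ENSOARG00000003928, chromosome 13, 72383636 to 72412129), was present in every library, with 19.9, 9.50 and 33.4 CPM in the lamb libraries, against 23.7, 12.2 and 16.9 CPM in the fetal libraries. Its lamb values spread 3.52-fold and enclosed all fetal values, and it was not called (log2 difference 0.25 ± 0.43, adjusted p = 0.670). Lamb library 3 was the highest of the 6, and without it the sign turned, to -0.26 (adjusted p = 0.604). Kidney tubule markers were low beside it: of 15 listed, 13 had any counts, SLC34A1 and AQP2 had 0, and their summed levels were 4.79 to 7.00 CPM in lambs and 6.03 to 10.2 CPM in fetuses. The part of kidney cells in the HNF4A level was not tested. HNF4G had 4, 1 and 0 counts in the lamb libraries and 5, 0 and 0 counts in the fetal libraries and was not tested.

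Of the sex steroid receptors, ESR1, the main estrogen receptor (ENSOARG00000003344, chromosome 8, 75378787 to 75701170), averaged 23.2 ± 4.04 CPM in lambs and 16.2 ± 3.63 CPM in fetuses. The lowest lamb value, 18.7 CPM, was just above the highest fetal value, 18.6 CPM, and the gene was not called (log2 difference 0.52 ± 0.21, adjusted p = 0.0753), although it was without lamb library 2 (0.65, adjusted p = 0.0433) and with library totals (0.97, adjusted p = 0.0108). ESR2 had 1 count in all. PGR, the progesterone receptor and an ESR1 target, had 8, 12 and 5 counts in the lamb libraries and 5, 1 and 0 counts in the fetal libraries and did not pass the filter on low counts; it overlaps ARHGAP42 (mean 165 counts). Of 18 listed targets, 8 were tested, and 4 were higher, 2 lower and 2 not called (median 0.33). FKBP5, which glucocorticoids induce as well, averaged 239.9 ± 111 CPM in lambs and 8.96 ± 2.32 CPM in fetuses (log2 difference 4.75 ± 0.39, adjusted p = 0.00014). GREB1, a cofactor of ESR1, averaged 1.44 ± 0.763 CPM in lambs and 13.3 ± 1.72 CPM in fetuses (log2 difference -3.21 ± 0.39, adjusted p = 0.000607). IGFBP4, a binding protein of insulin-like growth factors, averaged 63.4 ± 4.98 CPM in lambs and 126 ± 28.5 CPM in fetuses (log2 difference -0.99 ± 0.18, adjusted p = 0.00351), a call lost with library totals (adjusted p = 0.0833). CXCL12 and BMP2 rose too. The hormone gene STC1 was higher (log2 difference 1.05 ± 0.34, adjusted p = 0.0397), a call lost without lamb library 2 (0.107) or 3 (0.0554) or fetal library 2 (0.115) or 3 (0.113); without lamb library 2 the difference was 0.63.

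NR5A2 (LRH-1), known from liver, pancreas and ovary (ENSOARG00000015980, chromosome 12, 76980493 to 77092173), had 2.47, 1.51 and 1.5 CPM in the lamb libraries, against 11.2, 8.39 and 10.3 CPM in the fetal libraries. The stages were well apart (log2 difference -2.45 ± 0.26, adjusted p = 0.000365; -2.72 to -2.32 on leaving out 1 library). Its relative NR5A1 (SF-1), the regulator of adrenal and gonadal steroid synthesis, moved the other way at a far lower count, with 14, 17 and 16 counts in the lamb libraries and 3, 4 and 2 counts in the fetal libraries. In CPM it averaged 0.791 ± 0.0956 CPM in lambs and 0.198 ± 0.0889 CPM in fetuses (log2 difference 2.00 ± 0.46, adjusted p = 0.0101), and adjusted p reached 0.0499 on leaving out 1 library. Of 11 adrenal cortex markers listed other than NR5A1, 6 are in the table and 4 were tested. STAR and CYP17A1 were above 0 and not called (log2 difference 0.61 ± 0.24, adjusted p = 0.0702, and log2 difference 0.74 ± 0.70, adjusted p = 0.418), FDX1 was not called (log2 difference -0.26 ± 0.16, adjusted p = 0.214), and SCARB1, which other tissues use too, was lower (log2 difference -1.77 ± 0.13, adjusted p = 0.000102). The summed levels of these markers were 103 to 117 CPM in lambs and 200.0 to 235 CPM in fetuses. The defining marker CYP11A1 had 2, 5 and 1 counts in the lamb libraries and 6, 1 and 0 counts in the fetal libraries. The part of adrenal cells in the NR5A1 result was not tested. NR0B1 (DAX-1), a repressor of NR5A1, averaged 0.449 ± 0.299 CPM in lambs and 0.663 ± 0.276 CPM in fetuses (log2 difference -0.55 ± 0.65, adjusted p = 0.520), and NR6A1, a germ cell receptor, 0.657 ± 0.0989 CPM in lambs and 0.654 ± 0.0639 CPM in fetuses (log2 difference 0.00019 ± 0.42, adjusted p = 1).

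RORA, an activator of clock and lipid genes (ENSOARG00000020816, chromosome 7, 46356376 to 46741209), averaged 2.61 ± 0.633 CPM in lambs and 1.56 ± 0.177 CPM in fetuses, without overlap and not called (log2 difference 0.74 ± 0.29, adjusted p = 0.0714). The authors' stage means for RORA were 27.5 RPKM in lambs and 13.9 RPKM in fetuses. Its counts imply a length of only 112 bases in lambs and 94.9 in fetuses, so its level beside other members is not settled. Of 16 listed ROR targets, 12 were tested, and 2 were higher, 3 lower and 7 not called (median 0.20). The transcription factor NFIL3 was higher (log2 difference 1.02 ± 0.17, adjusted p = 0.00232), as was CYP7B1, an oxysterol hydroxylase (log2 difference 0.81 ± 0.26, adjusted p = 0.0357). NR1D1, the clock receptor REV-ERB alpha, was lower (log2 difference -1.22 ± 0.21, adjusted p = 0.00274), as was G6PC3, a glucose-6-phosphatase (log2 difference -0.77 ± 0.20, adjusted p = 0.0165). NPAS2, a partner of the clock protein BMAL1, was the other that fell. CYP7B1 was no longer called without lamb library 1, 2 or 3 (adjusted p = 0.0659, 0.0638 and 0.0925) or fetal library 2 or 3 (adjusted p = 0.0807 and 0.0982). The G6PC3 call was lost without fetal library 2 (0.0536) or fetal library 3 (0.0564) and with library totals (0.326).

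Among the coregulators, NCOA1 (SRC-1), a coactivator that acetylates histones (ENSOARG00000018040, chromosome 3, 31978828 to 32144756), had 65.3, 58.6 and 55.3 CPM in the lamb libraries, against 158, 171 and 158 CPM in the fetal libraries. The groups did not overlap (log2 difference -1.44 ± 0.12, adjusted p = 0.000138; -1.51 to -1.39 on leaving out 1 library). Its relatives NCOA2 and NCOA3 did not overlap between the stages either, but in the other direction and without a call: NCOA2 averaged 33.6 ± 5.04 CPM in lambs and 26.0 ± 2.76 CPM in fetuses (log2 difference 0.37 ± 0.15, adjusted p = 0.0722) and NCOA3 98.0 ± 9.83 CPM in lambs and 80.7 ± 1.53 CPM in fetuses (log2 difference 0.28 ± 0.12, adjusted p = 0.0874). NCOA3 overlaps SULF2 (mean 892 counts) in the annotation, and it was called without lamb library 3 (0.36, adjusted p = 0.0435). NRIP1 (RIP140), a corepressor that in mice restrains energy-burning genes of fat (ENSOARG00000001166, chromosome 1, 140597192 to 140600662), had 110.4, 47.5 and 34.7 CPM in the lamb libraries, against 18.9, 18.5 and 21.6 CPM in the fetal libraries. Every lamb value was above every fetal value (log2 difference 1.71 ± 0.40, adjusted p = 0.0107), with lamb library 1 at more than the other lamb libraries together. Without lamb library 1 the difference was 1.07 (adjusted p = 0.00453). NCOR1, the corepressor of unliganded receptors, averaged 155 ± 10.4 CPM in lambs and 176 ± 4.19 CPM in fetuses (log2 difference -0.18 ± 0.11, adjusted p = 0.217). Of 33 other coregulators listed, 30 were tested, and 12 were higher, 3 lower and 15 not called (median 0.27). The shares over all genes tested were 22.0% higher and 22.7% lower. TACC1, which binds receptors in the nucleus, averaged 186 ± 28.8 CPM in lambs and 47.8 ± 1.57 CPM in fetuses (log2 difference 1.96 ± 0.14, adjusted p = 0.000104) and the deacetylase gene SIRT1 100.5 ± 5.07 CPM in lambs and 41.2 ± 0.935 CPM in fetuses (log2 difference 1.28 ± 0.10, adjusted p = 0.000125). HDAC3 was the other gene called lower beside those that follow. The mitochondrial coactivator gene PPARGC1B averaged 3.54 ± 0.877 CPM in lambs and 79.7 ± 7.88 CPM in fetuses (log2 difference -4.49 ± 0.20, adjusted p = 2.29e-05). NSD1, a histone methyltransferase that binds receptors, averaged 99.5 ± 12.5 CPM in lambs and 143 ± 2.51 CPM in fetuses (log2 difference -0.52 ± 0.13, adjusted p = 0.0136), a call lost with library totals (adjusted p = 0.834).

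Ratios between pairs of members within a library do not depend on how libraries are scaled. For 6 pairs, chosen after the values were seen, the log2 ratio of counts was computed in each library; it is not corrected for gene length, so its changes and not its level are of use. The ratio of PPARG2 to RXRG, which act as a pair on DNA, was 2.50, 2.68 and 1.87 in the lamb libraries, against 0.84, 0.64 and 0.92 in the fetal libraries, a mean difference of 1.55. NCOA1 over NCOA3 was -0.67, -0.82 and -0.65 in the lamb libraries, against 1.00, 1.07 and 0.95 in the fetal libraries, a mean difference of -1.72. Here the sign turned: NCOA1 had fewer counts than NCOA3 in every lamb library and more in every fetal library. NR2F6 over NR2F2 was -2.26, -3.43 and -2.27 in the lamb libraries, against 0.38, 0.86 and 0.42 in the fetal libraries, a mean difference of -3.21, also with a change of sign. RARG over RARA was -2.40, -2.29 and -2.04 in the lamb libraries, against -1.33, -0.89 and -0.91 in the fetal libraries. NR1H3 over NR1H2 was 2.41, 1.42 and 2.29 in the lamb libraries, against 2.67, 2.94 and 3.02 in the fetal libraries, lowest in lamb library 2. NRIP1 over NCOR1 was -0.42, -1.81 and -2.12 in the lamb libraries, against -3.20, -3.23 and -3.07 in the fetal libraries, highest in lamb library 1. The stages did not overlap for any of the 6 pairs, but the pairs were picked from members whose values were known, so the separation is a description and no test of it is given.

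**Figure D3:**
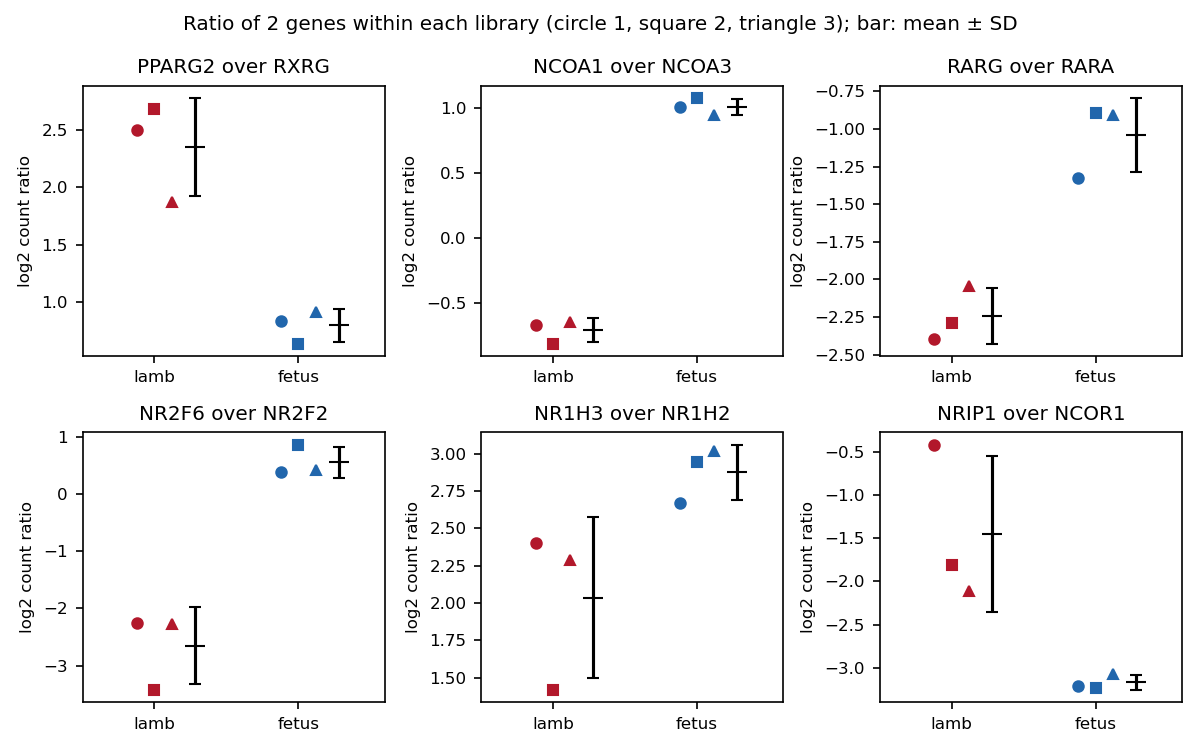
Log2 ratio of counts of 6 gene pairs within each of the 3 lamb and 3 fetal libraries, with mean ± SD; each panel has its own axis. The stages do not overlap in any panel, and NCOA1 over NCOA3 and NR2F6 over NR2F2 lie below 0 in lambs and above 0 in fetuses.

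Of 16 nuclear receptors outside the set described here, 13 were tested, and 5 were higher, 5 lower and 3 not called (median -0.091). The largest changes were those of the immediate early receptors NR4A3 (log2 difference 6.08 ± 0.31, adjusted p = 3.6e-05) and NR4A1 (log2 difference 2.38 ± 0.39, adjusted p = 0.00218) on one side. On the other were the estrogen-related receptors ESRRB (log2 difference -2.48 ± 0.19, adjusted p = 0.00011) and ESRRA (log2 difference -2.12 ± 0.14, adjusted p = 7.6e-05). Of the pair, ESRRA is known to act on mitochondrial genes. NR4A2, NR2E1 and the thyroid hormone receptor beta gene, listed as ERBA BETA1, rose too, and THRA and NR1D1 fell. Whether the share called differs between these receptors and the set described here was not tested.

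**Figure D4:**
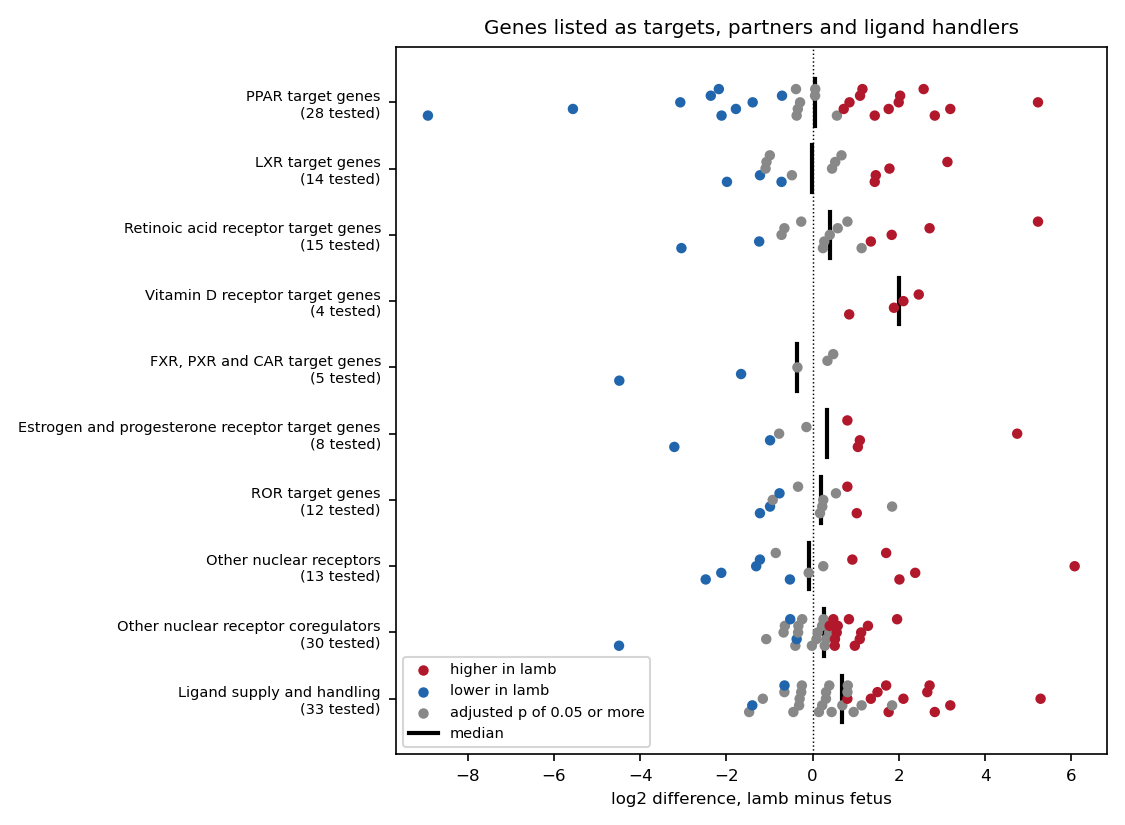
Log2 difference (lamb minus fetus) of the tested genes of 10 lists, 1 point a gene, with black bars at the medians, from 3 lamb and 3 fetal libraries. Most lists hold genes called in both directions. The 4 tested genes listed as vitamin D receptor targets all lie above 0, and the list gives no expected direction.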

How the data were processed

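Per the series' design text and the labels, total RNA was sequenced with a TruSeq kit as single-end 50-base reads on 1 flowcell, and reads were mapped to the Ensembl gene models of OARv3.1.74 in CLC Genomics Workbench 7.0. Read filters, handling of multiply mapped reads and use of strand are stated in no source used here. The authors deposited unnormalized counts per gene and library, and a mean RPKM per stage. A further 6 columns of per-library values were not used, nor were the authors' own test results.

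Counts were tested in edgeR 4.0.16 (R 4.3.3) with TMM factors, filterByExpr, the quasi-likelihood F test and Benjamini-Hochberg adjustment; genes with adjusted p below 0.05 were called, and SE is the log2 difference divided by the square root of F. Alternatives covered scaling, filters, DESeq2 1.42.0, edgeR's exact test, leaving out each library and a replicate block. The fits were tested on simulated counts. Genes listed under older names (FABP3 and THRB among them) were matched through RefSeq synonyms.

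The members, lists and tests were chosen with earlier results of these data known. Library values are given for PPARG2, PPARA, RXRA, RXRG, NR1H3 and members called with a log2 difference above 1 in size and no overlap; from each list up to 2 genes with the largest rise and 2 with the largest fall were named, at 5 CPM or more in the higher stage. Further values and names were chosen after they were seen. Some listed genes that the rule would name are counted but not reported here.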

Additional observations from a re-analysis of the deposited data

How the results depend on the processing

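Limits: there are 3 animals a stage, stage goes with age and with the mitochondrial share of counts, and members with few counts (NR1H4, NR1I2, HNF4G, ESR2, PGR and NR0B2) could not be tested at this depth. Over all genes 6095 were called, and 4798 to 5654 on leaving out 1 library; members higher numbered 4 (3 to 5 on leaving out 1 library) and members lower 6 (4 to 7). With library totals 11 members were higher; that setting has no TMM factor and moved the median of all genes by 0.47. It also turned the sign of uncalled members: NCOR1 0.29, NR1H3 0.037, NR2F1 0.46, PPARD 0.10, RARA 0.42, RXRA 0.38, RXRB 0.35 and VDR 0.12. NR2F1 turned to 0.0014 with DESeq2 size factors and to 0.0022 with the DESeq2 Wald test, and NR6A1 to -0.011 with totals free of mitochondrial genes and to -0.0023 with the exact test; the cause was not tested. On leaving out 1 library, uncalled members whose sign turned ranged, in log2 difference, over -0.26 to 0.60 (HNF4A), -0.035 to 0.16 (NR2C2), -0.38 to 0.20 (NR2F1), -0.073 to 0.12 (NR6A1), -0.19 to 0.066 (RARA) and -0.17 to 0.034 (RXRA).

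Same-numbered libraries correlated at 0.003, -0.12 and 0.046 in their deviations from the stage means, and unlike-numbered libraries at -0.14 to 0.14. Deviations within a stage are tied to each other by the shared mean, so these values cannot decide whether the replicate numbers pair the libraries. With the replicate block 5353 genes were called (2598 higher and 2755 lower), with 4 members higher and 5 lower; RXRG and NR2C1 were no longer called (adjusted p = 0.0501 and 0.0617), ESR1 was (0.0249), and NR6A1 was at -0.0048. Over the 14 alternatives, single members gave 413 values, of which 360 kept the direction and the side of the threshold, 14 lost a call, 11 gained one and 28 turned sign; at 5 CPM or more in 3 libraries, 7 members, NR5A1 and NR1I3 among them, gave no value.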

Other observations

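Most members were present in both stages. A mean of at least 1 CPM was reached by 26 members in lambs and 27 in fetuses, and a mean of at least 10 CPM by 19 in lambs and 22 in fetuses. The members at or above 100 CPM were 3 in lambs and 4 in fetuses, PPARG2, RXRG and NCOR1 in both and NCOA1 in fetuses.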
